A study of Mus musculus with 34 samples.

Results

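The regions described here are 2000 bp windows of H3K27 acetylation (H3K27ac) that were in the authors' peak lists of repopulating liver macrophages (RLM) and of Kupffer cells but not in their list of blood monocytes. They were chosen from the membership label in the authors' merged table of regions, and 5997 of 84647 regions (7.08%) carried it. These 5997 members form 5610 separate loci, since 60.1% of them overlapped another region of the table (55.2% of all regions did), and they lie nearest to 3977 genes. H3K27ac was measured by chromatin immunoprecipitation and sequencing in 2 libraries each of Ly6C-high blood monocytes from untreated C57BL/6J mice, of RLM from Clec4f-cre/Rosa26iDTR mice 24 h after diphtheria toxin, and of Kupffer cells. The Kupffer cell libraries are labelled C57BL/6J, whereas the description of the series places them in Clec4f-Cre/DTR mice. In this model the Kupffer cell gene Clec4f drives Cre, so that the toxin receptor, and with it the loss of cells, is limited to cells that have expressed Clec4f. H3K27ac was also measured in bone marrow-derived macrophages (BMDM) of C57BL/6J mice, cultured for 4 days and either left untreated or exposed for 24 h to the Notch ligand DLL4. LXR, SMAD4 and RBPJ binding was taken from Kupffer cells (LXR) or Kupffer cell nuclei (SMAD4, RBPJ) of Clec4f-cre mice, from BMDM cultured for 7 days with the LXR agonist GW3965 for 18 h (LXR), and from untreated 4-day BMDM (SMAD4, RBPJ). Each group had 2 libraries, with no label that ties them to different animals or cultures, and p-values therefore cover the spread between libraries alone.

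H3K27ac marks active promoters and enhancers, and in macrophages most of the cell type-specific signal lies at enhancers. Kupffer cells are the resident macrophages of the liver sinusoids. When they are lost, circulating monocytes enter the niche and take on Kupffer cell features under the influence of sinusoidal endothelium, stellate cells and hepatocytes, with Notch ligands, TGF-beta family ligands and LXR ligands among the known signals. RBPJ is the DNA-binding partner of the Notch intracellular domain, SMAD4 is the common partner of the TGF-beta and BMP SMADs, and LXR is a nuclear receptor for oxysterols that binds DNA with RXR.

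The 4 members shown by sequence have gene starts inside the acetylated window. Ranbp2 and Sh3tc1 are shown because peaks of all 3 factors in both Kupffer cell libraries fell on these bases, Tgif1 because it was the member with the most H3K27ac among those with little difference between Kupffer cells and RLM, and Senp6 because it was lower in Kupffer cells. Each run is the 250 bases upstream of the RefSeq start in GRCm38.p6, 5′ to 3′ on the gene's strand, and capitals mark matches to the 10 motifs listed further on. The runs lie at chr10:58446602-58446851 (plus strand, Ranbp2), chr5:35729277-35729526 (minus strand, Sh3tc1), chr17:70853533-70853782 (minus strand, Tgif1) and chr9:80066653-80066902 (plus strand, Senp6).
Ranbp2: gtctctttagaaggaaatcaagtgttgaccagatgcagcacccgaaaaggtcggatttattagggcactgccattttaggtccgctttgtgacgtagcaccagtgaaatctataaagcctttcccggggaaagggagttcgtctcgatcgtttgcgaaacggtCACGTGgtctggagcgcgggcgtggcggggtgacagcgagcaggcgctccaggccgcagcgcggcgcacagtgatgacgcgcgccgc
Sh3tc1: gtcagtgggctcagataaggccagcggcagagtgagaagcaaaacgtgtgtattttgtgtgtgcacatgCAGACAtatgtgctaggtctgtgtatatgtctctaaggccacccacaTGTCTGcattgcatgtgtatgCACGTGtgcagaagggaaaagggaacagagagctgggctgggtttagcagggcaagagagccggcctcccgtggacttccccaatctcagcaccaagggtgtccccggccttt
Tgif1: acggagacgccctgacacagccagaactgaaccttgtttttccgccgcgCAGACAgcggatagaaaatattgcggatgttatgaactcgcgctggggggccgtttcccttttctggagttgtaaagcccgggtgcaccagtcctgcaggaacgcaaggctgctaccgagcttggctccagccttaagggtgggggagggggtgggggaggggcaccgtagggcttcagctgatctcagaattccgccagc
Senp6: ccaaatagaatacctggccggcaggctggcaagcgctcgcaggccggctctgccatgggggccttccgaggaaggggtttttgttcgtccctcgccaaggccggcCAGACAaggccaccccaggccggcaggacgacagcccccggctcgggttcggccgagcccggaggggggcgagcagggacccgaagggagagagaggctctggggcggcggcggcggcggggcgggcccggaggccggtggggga

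Ranbp2 holds an E-box whose first base is at -87 from the start, Sh3tc1 an E-box at -113 and SMAD motifs at -181 and -134, Tgif1 a SMAD motif at -201 and Senp6 a SMAD motif at -145. At Ranbp2 the Kupffer cell peaks were centred at -41 and -24 for LXR, -78 and -91 for SMAD4 and -29 and -21 for RBPJ. At Sh3tc1 they were centred at -57 and -99 for LXR, -81 and -29 for SMAD4 and -134 and -58 for RBPJ. Over the Tgif1 bases, Kupffer cell SMAD4 peaks were called in both libraries, at -141 and -101, and an LXR peak in library 1 at -149. At Senp6 the SMAD4 peak of Kupffer cell library 2 was centred on the printed bases, at -36, and that of library 1 at 61, past the start and outside them. Motif letters within these windows are descriptions, and their part in the peaks was not tested.

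Depth and identity of the libraries were as follows. The tags in regions came to between 7.37 M and 19.5 M per library (M, 1000000 tags) for monocytes, RLM and Kupffer cells, with Kupffer cell library 2 the deepest, and to between 20.2 M and 27.2 M for BMDM. Levels are tags per 1000000 tags in regions after TMM scaling (CPM), read in the authors' 2000 bp windows. Over the strongest region of each of 30 Kupffer cell genes the summed level was 127 and 135 CPM in monocytes, 310 and 323 in RLM and 1232 and 1613 in Kupffer cells. At the strongest region of Clec4f itself the levels were 1.07 and 0.578 CPM in monocytes, 1.18 and 1.12 in RLM and 40.5 and 56.4 in Kupffer cells. Summed over 19 monocyte genes the levels were 410.0 and 409.8 CPM, 372 and 385, and 261 and 303. For other cell types, 6 of 11 hepatocyte, 7 of 10 stellate and 7 of 13 lymphocyte marker genes were nearest to no region of the table, with Ahsg and Dcn among them. The remaining hepatocyte genes summed to 25.4 and 24.9 CPM in monocytes, 24.4 and 19.6 in RLM and 62.4 and 67.9 in Kupffer cells. This sum does not stand for each gene. The strongest Alb region had 1.97 and 3.45 CPM in RLM and 2.74 and 2.11 in Kupffer cells. For Apoa1 the levels were 4.07 and 2.84, and 3.70 and 4.52. A Ttr member was higher in Kupffer cells, as given below. Stellate genes summed to 10.4 and 8.03 CPM in RLM and 17.3 and 16.3 in Kupffer cells, and lymphocyte genes to 53.5 and 46.7 and to 34.9 and 45.7. Endothelial genes (11 of 13 with a region) summed to 48.0 and 46.6 CPM in RLM and 94.3 and 111 in Kupffer cells. The endothelial list shares Cdh5 with the Kupffer cell list. Neutrophil genes (11 of 13) summed to 47.8 and 38.8 CPM in RLM and to 87.7 and 118 in Kupffer cells. Erythroid and megakaryocyte genes (6 of 10) summed to 43.2 and 39.5 CPM and to 32.8 and 42.5, and dendritic cell genes (12 of 13) to 146 and 141 and to 258 and 338. The part of these cells in the differences below was not tested. H3K27ac per cell and the share of cells that carry the mark cannot be told apart in these bulk samples.

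Absence from the monocyte list was not absence of monocyte signal. The median member had 1.90 and 1.73 CPM in the monocyte libraries, 3.42 and 3.25 in RLM and 7.87 and 8.21 in Kupffer cells. Monocyte signal nevertheless reached 202 CPM, and 1292 members (21.5%) had a mean monocyte level above 7.39 CPM, the median of the 36273 regions in all 3 lists. Overlap within the merged table goes with this spread: 2642 members (44.1%) overlapped a region that is in the monocyte list and had a median monocyte level of 6.28 CPM, 960 overlapped other regions only (1.36 CPM), and 2395 overlapped none (1.24 CPM). Because the label was set by these 3 cell types, the differences from monocytes are given as a description and with no test.

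**Figure D1:**
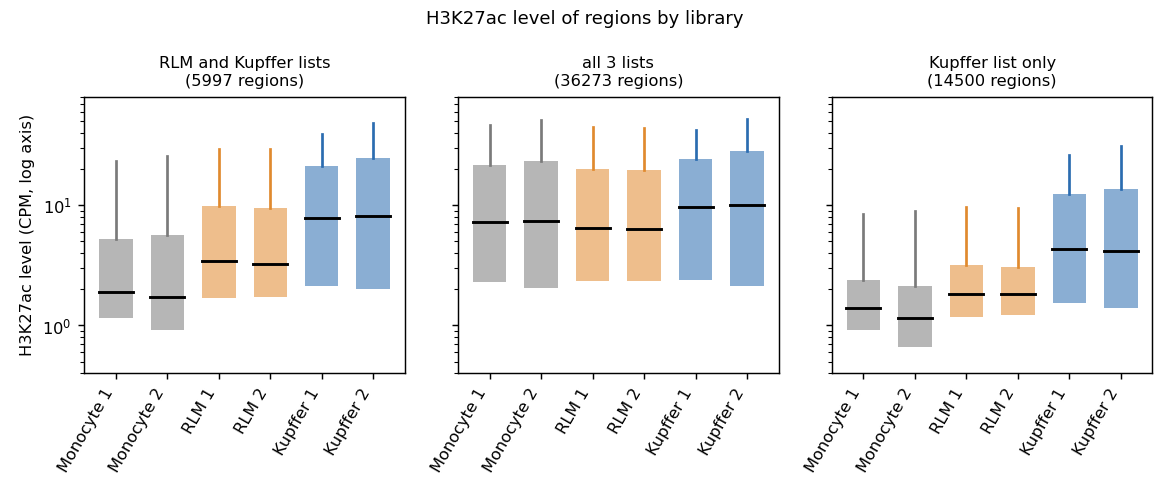
H3K27ac level in CPM (log axis) in each of the 6 libraries, for the 5997 members (left), the 36273 regions of all 3 lists (middle) and the 14500 regions of the Kupffer cell list only (right). Boxes span the quartiles, black lines are medians and whiskers reach the 90th percentile; member medians climb from 1.90 and 1.73 in monocytes to 7.87 and 8.21 in Kupffer cells, while those of all 3 lists lie between 6.40 and 10.0.

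The members with the most monocyte signal show how far the label and the level part. Ranbp2, a nucleoporin and SUMO ligase, had 202 and 186 CPM in monocytes, 179 and 170 in RLM and 73.9 and 119 in Kupffer cells. Ptp4a1, a phosphatase gene, had 173 and 188 CPM in monocytes, and Clasp2, which encodes a microtubule plus-end protein, had 160 and 165. In these 3 members both monocyte libraries exceeded both Kupffer cell libraries. On the other side of the rule, 2 of the regions of all 3 lists with the least monocyte signal, near Zfp991 and Tada1, had between 0 and 0.165 CPM in monocytes and at most 1.02 CPM in any library.

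Of the 5997 members, 5846 had enough tags to be fitted and 151 did not. Among the former, the median log2 difference was 0.58 for RLM minus monocytes and 1.14 for Kupffer cells minus monocytes, against 0.07 and -0.06 over all regions fitted. Both RLM libraries lay above both monocyte libraries in 3081 of the 5997 members, against 25401 of all 84647 regions (30%). Both Kupffer cell libraries did in 3768 of the 5997 members, against 31243 of all 84647 regions (36.9%). These values follow from how the members were chosen. By group means, the order monocyte, RLM, Kupffer cell from low to high was found in 2968 members (49.5%). In 1545 (25.8%) the RLM mean was at or below the monocyte mean, and in 1635 (27.3%) the Kupffer cell mean was.

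Most members lay away from gene starts. Of the members, 10.6% were annotated as promoters, 46.3% as introns and 36.9% as intergenic, and 71.0% lay more than 3 kb from a start. Of all regions, 18.0% were promoters and 66.6% lay more than 3 kb away. Regions of all 3 lists had 31.4% promoters, and each of the other 5 classes between 6.64% and 11.02%. The median distance to a gene start was 13103 bp for members and 10362.5 bp for all regions.

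Between the liver populations, the label asks for presence in both lists, but it also asks for absence from the monocyte list. The direction of the difference between Kupffer cells and RLM may therefore not be free of the rule. This difference was tested region by region on the same libraries that gave the lists, so the counts are a description. In Kupffer cells, 2253 of 5846 rose by at least 2-fold over RLM (38.5%, against 22.3% of all regions) and 338 fell (5.78%, against 13.9%), by edgeR's quasi-likelihood test with Benjamini-Hochberg adjustment. The share over all regions includes classes chosen for absence from the Kupffer cell or RLM list, so that nothing is read from it. In regions of all 3 lists 20.6% rose and 9.23% fell, and in those of the Kupffer cell list only 44.4% and 3.38%. Regions of the monocyte and Kupffer cell lists, which are absent from the RLM list, had 29.4% higher and 7.40% lower (median 0.37 log2). The median log2 difference was 0.63 over members, 0.09 over regions of all 3 lists and 0.93 over regions of the Kupffer cell list only, and -0.04 over all regions. In all 2253 members called higher both Kupffer cell libraries exceeded both RLM libraries, and in 337 of the 338 called lower both lay below. With 2 libraries a group the call itself leaves little room for overlap, so this adds no support to it. The summed hepatocyte, endothelial, stellate, neutrophil and dendritic cell genes were also higher in both Kupffer cell libraries than in both RLM libraries, as given above. Taken singly, the hepatocyte genes Alb and Apoa1 overlapped between these groups. The part of other cells was not tested. Without Kupffer cell library 2, the deepest, 1794 members were called higher and 150 lower. Cell population, toxin treatment and, if the labels hold, mouse strain all differ between these groups and cannot be told apart.

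**Figure D2:**
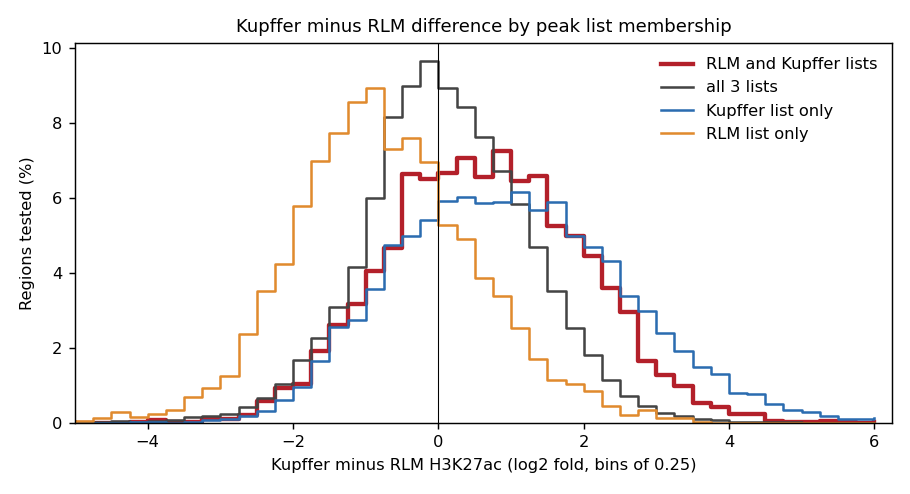
Distribution of the log2 difference in H3K27ac, Kupffer cells minus RLM, in bins of 0.25, as a percent of the regions tested in each class of list membership. The curve of the members (median 0.63) lies between that of regions in all 3 lists (0.09) and that of the Kupffer cell list only (0.93), and the RLM list only is centred below 0 (-0.82).

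Distance from gene starts went with the size of the difference. Among 4149 tested members more than 3 kb from a start, 1835 rose (44.2%, median 0.84 log2), and among 606 promoter members 126 rose (20.8%, median 0.08). Promoter members had more signal to begin with, with medians of 11.5 CPM in monocytes, 14.5 in RLM and 20.9 in Kupffer cells, against 1.53, 2.66 and 5.92 for the distal ones. Overlap went with the share that rose as well. Of members that overlapped no other region, 30.8% rose and 7.38% fell. Of those that overlapped a region of the monocyte list, 35.7% rose and 5.78% fell. The 950 tested members that overlapped other regions only had the largest share of rises, with 64.9% higher and 2% lower.

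The members named for the largest rise over RLM had little signal at 24 h and strong signal in Kupffer cells. The Ptgis member (chr2:167252702-167254702, 13165 bp from the start of the prostacyclin synthase gene) had 0.744 and 1.32 CPM in monocytes, 0.394 and 0.711 in RLM and 40.3 and 48.8 in Kupffer cells. Its RLM value rests on 3 and 7 tags, so that presence in the RLM list did not mean a strong RLM signal in this window. The log2 difference between Kupffer cells and RLM was 6.26 (SE 0.39, edgeR adjusted p = 3.74e-22). An intronic Ttyh2 member (chr11:114678827-114680827) had 0.744 and 1.32 CPM in monocytes, 1.18 and 1.32 in RLM and 45.8 and 67.7 in Kupffer cells, a log2 difference of 5.49 (SE 0.34, adjusted p = 2.37e-22). Both RLM libraries lay below the monocyte libraries at Ptgis, and the 2 groups overlapped at Ttyh2.

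The intronic Pcolce2 member (chr9:95681800-95683800), in a gene for an enhancer of procollagen processing, went from 1.18 and 1.93 CPM in RLM to 43.6 and 73.0 in Kupffer cells (log2 5.19, SE 0.33, adjusted p = 1.21e-21). At Dapk1, which encodes a death-associated kinase, the RLM levels were 2.10 and 1.02 CPM and the Kupffer cell levels 40.3 and 59.3 (log2 5.04, SE 0.34). The Slc1a3 member, near a glutamate transporter gene, gave 2.10 and 1.32 against 39.5 and 57.5 CPM (log2 4.85, SE 0.34). Those near Aebp2, a cofactor of Polycomb repressive complex 2, Oacyl and Wfdc11 rose by 5.50, 5.39 and 5.34 on the log2 scale. All 8 held a SMAD4 peak in both Kupffer cell libraries, 7 of them also held LXR (Slc1a3 did not), and none held RBPJ in both libraries.

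The 8 members named for the largest fall were taken from those above the median level. Of them 7, all but the one near Pisd-ps3, lay within 2142 bp of a gene start. Each of the 8 overlapped a region of the monocyte list, as did 44.1% of all members. At Slc1a5, the glutamine transporter gene, an intronic member (chr7:16781708-16783708, 1362 bp from the start) had 12.98 and 12.38 CPM in monocytes, 24.3 and 25.9 in RLM and 2.74 and 1.06 in Kupffer cells. The log2 difference was -3.87 (SE 0.34, edgeR adjusted p = 1.31e-15), and both Kupffer cell libraries lay below all others. Elk3, an ETS factor gene, had 10.4 and 5.70 CPM in monocytes, 17.9 and 22.2 in RLM and 4.05 and 3.75 in Kupffer cells (log2 -2.37, SE 0.31, adjusted p = 2.20e-09). Prdx6, which encodes a peroxiredoxin, stepped down from 60.7 and 57.0 CPM in monocytes to 27.6 and 28.7 in RLM and 8.82 and 7.63 in Kupffer cells (log2 -1.78, SE 0.24, against RLM).

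Senp6, a SUMO protease gene whose promoter is printed above, had 58.1 and 75.9 CPM in monocytes, 75.7 and 80.6 in RLM and 31.4 and 17.7 in Kupffer cells (log2 -1.69, SE 0.22, adjusted p = 1.85e-09). The ribosomal protein gene Rps24 and the septin gene Sept11 gave log2 differences of -1.65 (SE 0.30) and -2.00 (SE 0.31). Members near Sfi1 and Pisd-ps3 were also among the largest falls (-2.20 and -1.91), but these loci have near-identical copies, Pisd-ps3 on an unplaced contig, so tags may be split between copies and the values are uncertain. The 25 members at these copies or on unplaced contigs include 20 of the 338 that fell. Leaving them out gave 2250 higher and 318 lower.

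**Figure D3:**
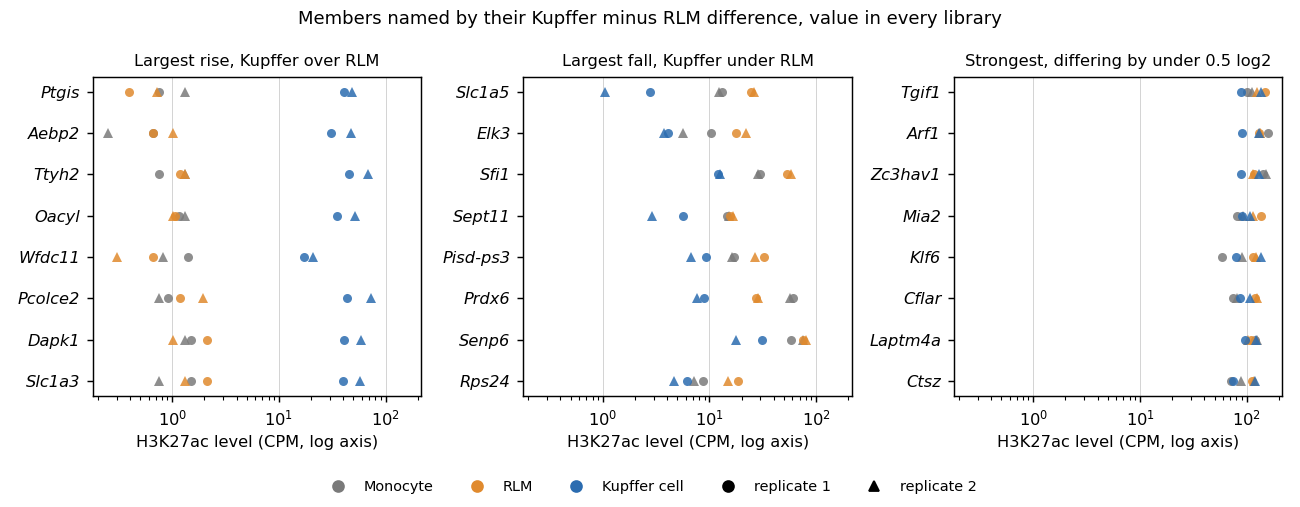
H3K27ac level in CPM (log axis) in every library for the 8 members with the largest rise (left), the 8 with the largest fall (middle) and the 8 strongest that differed by under 0.5 log2 (right); color marks the cell type and marker shape the library. On the left the Kupffer cell libraries stand apart from monocytes and RLM, which lie close together; in the middle Kupffer cells lie below RLM; on the right all 6 libraries lie between 58.3 and 157.

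The strongest members that differed little between the liver populations lay at or close to gene starts and had high signal in all 3 cell types. Each of these 8 overlapped a region of the monocyte list, as did 44.1% of all members. Tgif1, a corepressor of TGF-beta signalling, had 100.4 and 112 CPM in monocytes, 148 and 125 in RLM and 88.0 and 137 in Kupffer cells (log2 difference -0.28, SE 0.19, edgeR adjusted p = 0.237). Klf6, a zinc finger factor gene, had 58.3 and 91.4, 114 and 123, and 78.8 and 136 CPM, and at both genes the range of the Kupffer cell libraries overlapped that of each other group. Arf1 and Laptm4a, genes of Golgi and lysosomal membrane traffic, the antiviral gene Zc3hav1, the ER export gene Mia2, the caspase-8 inhibitor gene Cflar and the protease gene Ctsz had log2 differences between -0.34 and 0.04. A p that misses the threshold does not show equal levels, and Kupffer cell library 2 exceeded library 1 at each of the 8. Over the 1705 members with a Kupffer cell mean of 20 CPM or more, the median ratio of Kupffer cell library 2 to library 1 was 1.26, against 0.976 for RLM library 2 to library 1.

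Of 30 genes of Kupffer cell identity, a list that overlaps what the study chose to describe and is no independent evidence, 18 had members, 36 in all. Of these, 30 rose over RLM, 0 fell and 6 were not called, with a median of 2.00 log2. This count and those of the lists that follow stand beside the 38.5% of all tested members that rose and the 5.78% that fell. The Sdc3 member, in an intron of a syndecan gene, had 0.992 and 1.07 CPM in monocytes, 8.01 and 9.35 in RLM and 77.9 and 124 in Kupffer cells (log2 3.54, SE 0.25, edgeR adjusted p = 6.18e-20). The 3 cell types did not overlap there. Il18bp, which encodes the soluble inhibitor of interleukin 18, went from 3.81 and 3.76 CPM in RLM to 37.1 and 51.9 (log2 3.56, SE 0.30).

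The regions at Spic and the C1q genes, named after their values were seen, were already strong in RLM. Spic, a factor of iron-recycling macrophages, had at its promoter 1.65 and 0.578 CPM in monocytes, 28.9 and 26.4 in RLM and 56.9 and 71.6 in Kupffer cells (log2 1.22, SE 0.23, against RLM, adjusted p = 8.58e-06). The C1qb promoter, of the complement C1q gene cluster, had 0.579 and 0.330 CPM, 33.5 and 33.6, and 62.2 and 75.2 (log2 1.04, SE 0.22). On a log scale RLM lay nearer to Kupffer cells than to monocytes at both loci, and nearer to monocytes at Ptgis, Ttyh2 and Pcolce2. The single Clec4f member, named for its place as the driver of Cre, was at 0.827 and 1.82 CPM in monocytes, 1.45 and 1.22 in RLM and 1.43 and 0.645 in Kupffer cells and was not called.

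Targets of LXR, which controls cholesterol efflux and fatty acid synthesis, had members at 12 of 26 genes. Of 26 tested regions 21 rose and 0 fell, with a median of 1.56 log2. Abca1, the cholesterol exporter gene, had 6 members, all of which rose, and the strongest change was at an intronic one (chr4:53149725-53151725) with 1.65 and 0.660 CPM in monocytes, 5.26 and 4.57 in RLM and 31.2 and 43.2 in Kupffer cells (log2 2.93, SE 0.30, adjusted p = 3.68e-13). Abcg1, its partner in efflux to HDL, rose by 3.45 (SE 0.37), and Scd1, a fatty acid desaturase gene, by 2.17 (SE 0.39). Of the 27 regions, 20 held LXR peaks in both Kupffer cell libraries, against 47.7% of all members.

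Among general macrophage genes, 24 of 35 member regions rose and 2 fell, with a median of 1.35 log2. The falls, named after their values were seen, were at weak regions of Mrc1 (-1.64, SE 0.61) and Maf (-2.15, SE 0.81). An intronic region of Mrc1, the mannose receptor gene, had 0.909 and 1.24 CPM in monocytes, 0.657 and 1.63 in RLM and 21.5 and 27.3 in Kupffer cells (log2 4.35, SE 0.38, edgeR adjusted p = 1.05e-15). Mertk, a receptor for apoptotic cells, rose by 2.85 (SE 0.35), Csf1r, the receptor of the macrophage growth factor, by 3.14 (SE 0.35), and Adgre1, which encodes F4/80, by 2.88 (SE 0.32). Scavenger and clearance receptors had 18 of 29 regions higher and 1 lower, among them Vsig4 (2.68), a complement receptor, and Stab1 (2.39), a stabilin. This list shares Mrc1, Mertk and Axl with the macrophage genes and Vsig4, Cd163, Cd5l and Clec4f with the Kupffer cell list.

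Iron and heme genes had 9 of 14 regions higher and 0 lower (median 1.39). The list shares Slc40a1 (4 higher), Spic (2 higher) and Cd163 with the Kupffer cell list, so most of these rises are counted in both. All 4 members at Slc40a1, the iron exporter ferroportin, rose, and one at chr1:45864921-45866921 had 1.49 and 1.82 CPM in monocytes, 7.88 and 6.60 in RLM and 40.1 and 58.6 in Kupffer cells (log2 2.78, SE 0.27, edgeR adjusted p = 4.99e-14). Hmox1, which encodes the heme-degrading enzyme, rose by 1.54 (SE 0.26), and Ncoa4, the receptor for ferritin degradation, by 1.95 (SE 0.27). Lysosomal genes had 16 of 24 higher and 0 lower (median 1.23), with Lgmn, the gene of the protease legumain, at 3.33 and Tfec, a lysosomal gene regulator, at 2.01. Lgmn, which is also in the macrophage list, gave 7 of the 16. In these lists the groups separated in the named regions, with every Kupffer cell library above every RLM library. These regions were picked for the size of that difference, so the separation adds no support.

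TGF-beta and BMP targets had members at 11 of 22 genes, and 15 of 33 tested regions rose and 0 fell (median 0.96). Of all tested members, 38.5% rose and 5.78% fell (median 0.63). Skil, a feedback inhibitor of SMADs, had 0.579 and 1.49 CPM in monocytes, 5.65 and 7.42 in RLM and 53.3 and 76.4 in Kupffer cells (log2 3.30, SE 0.27, edgeR adjusted p = 1.09e-16). Ski, a related corepressor gene, stayed at 9.46 and 9.96 CPM in RLM against 9.84 and 10.3 in monocytes and had 32.8 and 38.8 in Kupffer cells (log2 1.88, SE 0.26). The single Id3 member, which lies 4658 bp from the start of this BMP target, had 8.41 and 10.1 CPM in RLM and 27.1 and 20.3 in Kupffer cells (log2 1.34, SE 0.28). Of the 2 Id1 members, neither was called (log2 0.89 and 0.96). Of the 34 regions, 12 held SMAD4 in both Kupffer cell libraries, against 37.3% of all members.

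Few Notch target genes had members, 4 of 19, and 9 of their 11 regions rose while 1 fell. The fall was at Dtx4, a Deltex ubiquitin ligase gene, with 5.21 and 3.88 CPM in monocytes, 23.4 and 21.5 in RLM and 9.66 and 5.57 in Kupffer cells (log2 -1.60, SE 0.29, edgeR adjusted p = 4.91e-06). RLM thus exceeded both other cell types in every library. At Cd38, the NAD-consuming ectoenzyme gene, the change was the other way, from 4.34 and 6.10 CPM in RLM to 39.0 and 60.2 (log2 3.24, SE 0.29), at Notch1, a receptor, 2.46 (SE 0.33), and at Hey1, a repressor induced by Notch, 2.09 (SE 0.47). None of the 11 regions held RBPJ in both Kupffer cell libraries, against 9.69% of all members.

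Lineage transcription factors had 21 of 47 regions higher and 2 lower (median 0.96), against 38.5% and 5.78% of all tested members. The falls were at Maf (above) and Klf4 (-1.95, SE 0.70, named after its value was seen). Rxra, the partner of LXR, rose by 3.11 (SE 0.29), Zeb2 by 2.85 (SE 0.28) and Irf8 by 2.62 (SE 0.30), the last 2 being genes of factors that shape the myeloid lineage. Klf2 took another course: its member had 11.7 and 8.50 CPM in monocytes, 3.15 and 2.95 in RLM and 14.4 and 22.5 in Kupffer cells (log2 2.61, SE 0.33, edgeR adjusted p = 4.24e-10). RLM was thus the lowest of the 3 in every library.

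The inflammatory lists came next. NF-kB response genes had 10 of 29 regions higher and 0 lower (median 0.42), led by Nfkbiz (2.70), Il6 (2.63), Nfkbia (2.24) and the promoter of Il1a (2.19), and interferon genes had 2 of 5 higher, Ifit3 and Mx1. The call of Mx1, an antiviral GTPase gene, was lost with DESeq2 and without Kupffer cell library 2. Monocyte genes had 12 regions at 3 of 19 genes, of which 5 rose, at Plac8 and Itga4, and 1 fell, near Ly6c2. That Ly6c2 member, by the gene of the antigen that defines the sorted monocytes, had 43.4 and 39.1 CPM in monocytes, 70.3 and 69.4 in RLM and 19.6 and 24.8 in Kupffer cells (log2 -1.64, SE 0.21, edgeR adjusted p = 8.97e-10). These list counts may be set against the 38.5% of all tested members that rose. Several lists share genes, so their counts are not separate results.

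Marker genes of other cells had few members. Hepatocyte markers had 1 of 11 genes with a member, Ttr (5.78 and 3.45 CPM in RLM, 28.7 and 35.0 in Kupffer cells, log2 2.81), and endothelial markers 2 of 13, with Cldn5 higher (log2 1.85). The erythroid and megakaryocyte list had 1 region, at Pf4, with 14.9 and 16.2 CPM in RLM and 12.6 and 19.6 in Kupffer cells, and neutrophil, stellate and lymphocyte lists 1 gene each. The lymphocyte gene was Klrb1c (log2 1.15), whose call was lost without scaling factors and without Kupffer cell library 2. Dendritic cell genes had 10 regions at 4 genes, of which 6 rose, at Irf8 and Batf3. What other cells contributed was not tested.

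Several genes held clusters of members. Itga9, which encodes the integrin alpha 9 chain, had 16 of its 38 regions among them, spread from 118588426 to 118707417 on chromosome 9, and 13 rose and 0 fell (median 2.15 log2). At the strongest, an intronic window at chr9:118661715-118663715, the levels were 1.16 and 0.826 CPM in monocytes, 22.1 and 17.9 in RLM and 71.8 and 90.2 in Kupffer cells (log2 2.03, SE 0.23, adjusted p = 8.42e-12). The 3 not called include a pair of overlapping intronic windows with 6.17 and 6.20 CPM (the first of the pair) in RLM against 3.58 and 6.04 in Kupffer cells. Rgs1, a regulator of G protein signalling, had 14 members, 5 higher and 0 lower, and an intronic window at chr1:144246615-144248615 had 29.2 and 36.4 CPM in RLM and 22.1 and 30.3 in Kupffer cells (log2 -0.32, SE 0.24, not called). Within that gene the windows called higher are all upstream of the start, while those in its body or downstream did not pass the test. Lgmn and Basp1 had 11 members each, with 7 and 5 higher and 0 lower.

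Factor binding was read from the authors' peak lists, a member holding a factor when at least 50% of a peak lay in it in both libraries of a group. LXR was found at 47.7% of members in Kupffer cells, SMAD4 at 37.3% and RBPJ at 9.69%, against 40.3%, 34.7% and 10.6% of all regions of the table and 56.7%, 52.8% and 17.4% of regions in all 3 lists. For regions of the Kupffer cell list only these shares were 40.7%, 26.7% and 6.03%. Single libraries gave 65.5% and 55.4% for LXR, 56.4% and 43.0% for SMAD4 and 21.3% and 18.0% for RBPJ, so the call in both libraries is the strict one. Kupffer cell LXR library 2 was called against an input whose name gives another diet than the library's own. The RBPJ peaks were shallow: at members with a peak the median was 6.06- and 5.61-fold over input in the authors' lists, against 20.9 and 17.6 for LXR and 28.2 and 37.5 for SMAD4, and at 8-fold or more only 0.95% of members kept RBPJ.

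In BMDM the shares at members were 39.1% for LXR, 27.3% for SMAD4 and 68.0% for RBPJ, against 31.5%, 28.4% and 68.0% of all regions. In neither cell type did SMAD4 or RBPJ at members lie more than 3 percentage points from the share over all regions. LXR and SMAD4 occurred together without RBPJ at 1325 members, LXR alone at 1023, SMAD4 alone at 420 and all 3 at 449, while 2648 members held none in both libraries. Peak lists of different depth and length are not compared between cell types.

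The rise over RLM was read by factor. The median log2 difference between Kupffer cells and RLM was 1.08 at the 2859 tested members with LXR in both Kupffer cell libraries, of which 51.4% rose, and -0.28 at the 1484 with LXR in neither, of which 18.3% rose. For SMAD4 the medians were 1.08 and 0.01, with 51.7% and 22.1% rising. For RBPJ they were 0.96 and 0.51, with 47.6% and 35.1%. Where all 3 factors were present the median was 1.02, and where no library of any factor had a peak it was -0.47. In regions of all 3 lists each factor also went with a higher median, at lower values, 0.34 with and -0.66 without LXR. The order of the factors was not the same. With all 3 factors the median there was 0.41, above those with LXR, SMAD4 or RBPJ, while in members it was below those with LXR or SMAD4. Level goes with these groups too: the median Kupffer cell signal was 16.8 CPM at members with LXR and 1.75 at those without, and the share of the difference that goes with signal strength was not tested.

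**Figure D4:**
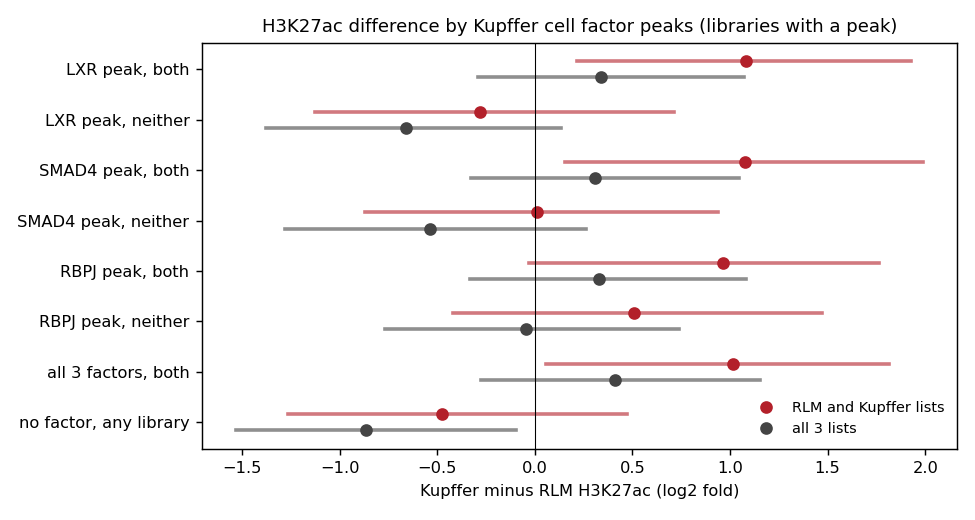
Median (points) and quartiles (lines) of the log2 difference in H3K27ac, Kupffer cells minus RLM, for members (red) and regions of all 3 lists (grey), split by peaks of LXR, SMAD4 and RBPJ in both or in neither Kupffer cell library. Members with LXR are centred at 1.08 and those with no factor in any library at -0.47.

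Among members that held all 3 factors in Kupffer cells, those with the most Kupffer cell signal were near Slc8b1, Tgm2, Mdm1, Ctsz, Ranbp2, Lrp1, Sh3tc1 and Adgre5. Each of these 8 overlapped a region of the monocyte list, as did 44.1% of all members. Tgm2, the gene of transglutaminase 2, had 1.98 and 1.32 CPM in monocytes, 52.2 and 66.0 in RLM and 89.4 and 120 in Kupffer cells. Its log2 difference between Kupffer cells and RLM was 0.82 (SE 0.20, edgeR adjusted p = 0.000622), under the 2-fold minimum. Of these 8 it had the least monocyte signal and the widest step from monocytes to RLM, 5.15 log2 as a description. Slc8b1, a mitochondrial sodium-calcium exchanger gene, had 28.4 and 24.1, 67.8 and 63.8, and 105 and 139 CPM. Sh3tc1, printed above, had 60.3 and 64.0, 66.7 and 59.2, and 73.0 and 110 CPM, with the monocyte and RLM libraries overlapping.

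Promoter letters were compared by share. A RefSeq promoter start lay in a member for 1337 of 32851 promoters in the table (300 bases each, 250 before and 50 after the start), and only 271 of these lay in members alone, the others being covered by overlapping non-members as well. The motifs searched, on both strands and with any overlap allowed, were the E-box CACGTG, RBPJ TGGGAA, SMAD CAGACA, the nuclear receptor site AGGTCA, ETS GAGGAAGT, AP-1 TGANTCA, the MAF site TGCTGAC, IRF (GAAA, 2 free bases, GAAA), CEBP TTGCNNNAA and the LXR DR4 motif (AGGTCA, 4 free bases, AGGTCA), which contains the nuclear receptor site. The E-box was in 11.9% of promoters in members, 10.1% of those in any region and 7.15% of all. RBPJ letters were in 21.1%, 23.0% and 25.6%, SMAD letters in 15.0%, 15.8% and 21.0%, and the nuclear receptor site in 11.4%, 12.2% and 16.3%. ETS, AP-1, MAF, IRF and CEBP letters were in 2.02%, 5.09%, 3.14%, 3.29% and 6.73% of promoters in members, against 3.20%, 7.81%, 4.67%, 3.44% and 9.56% of all. In the 271 promoters in members alone the shares were 11.1% for the E-box, 26.6% for RBPJ, 19.9% for SMAD, 15.5% for the nuclear receptor site, 3.32% for ETS, 8.49% for AP-1, 3.69% for MAF, 1.11% for IRF and 7.38% for CEBP. RBPJ, ETS and AP-1 letters thus lay below the share of all promoters over the 1337 promoters in members and above it over these 271. The 271 are few and part of the 1337, the excess over all promoters was small, and these differences were not tested. The DR4 letters were in 0 of the promoters in members, which says only that these letters are not in these windows.

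Most members had an H3K27ac region in cultured BMDM as well. With an overlap of at least 1000 bp, 5539 of 5997 members (92.4%) did, against 98.8% of regions in all 3 lists, 93.0% of those in the monocyte and Kupffer cell lists and 63.7% of the Kupffer cell list only. The share was 89.7% for the monocyte and RLM lists, 76.8% for the RLM list only and 72.6% for the monocyte list only. The members overlapped 7901 BMDM regions, of which 82.3% were in both the untreated and the DLL4 list, 11.6% in the DLL4 list alone and 6.10% in the untreated list alone. The DLL4 list alone held 6.19% of the BMDM regions at regions of all 3 lists and 9.95% to 17.0% at the other classes, a range that includes the members. For the untreated list alone these shares were 4.82% and 7.98% to 12.5%.

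DLL4 raised H3K27ac at a minority of these regions and lowered it at few. Of 7414 tested BMDM regions that overlapped members, 643 rose by at least 2-fold after 24 h of DLL4 (8.67%, against 4.89% of all BMDM regions) and 73 fell (0.985%, against 2.64%), by edgeR's quasi-likelihood test. For regions of all 3 lists 4.52% rose, and for the Kupffer cell list only 7.09% did. The median log2 difference was 0.09 over regions at members and -0.02 over all. Each BMDM region was counted once, but 7901 of them lay at 5539 members. Neighbouring windows of 1 locus are thus counted separately, and these counts are not independent.

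The response to DLL4 was also read by the difference between Kupffer cells and RLM, a comparison that shares no library with it. Of BMDM regions at members higher in Kupffer cells 14.3% rose with DLL4, at members not called 5.53%, and at members lower in Kupffer cells 2.23%. Where RBPJ was bound in both Kupffer cell libraries 11.2% rose and where it was in neither 7.63%. For LXR the shares were 10.6% and 4.25%, and for SMAD4 10.3% and 5.58%. RBPJ in both untreated BMDM libraries went with 8.60%, and in neither with 7.65%. No test was made of the differences between these shares.

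Itga9, the gene with the most members, was read in both tables. Of the 14 tested BMDM regions at its members 12 rose with DLL4 and 0 fell, with a median of 3.23 log2. The region with the largest rise there (chr9:118611432-118613432, 5722 bp into the gene as measured to the member) had 0.486 and 0.977 CPM untreated and 12.6 and 13.8 with DLL4 (log2 4.11, SE 0.28, edgeR adjusted p = 5.02e-14). The overlapping member had 9.46 and 11.3 CPM in RLM and 36.2 and 54.9 in Kupffer cells, against 0.827 and 0.083 in monocytes. The groups did not overlap in either table.

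**Figure D5:**
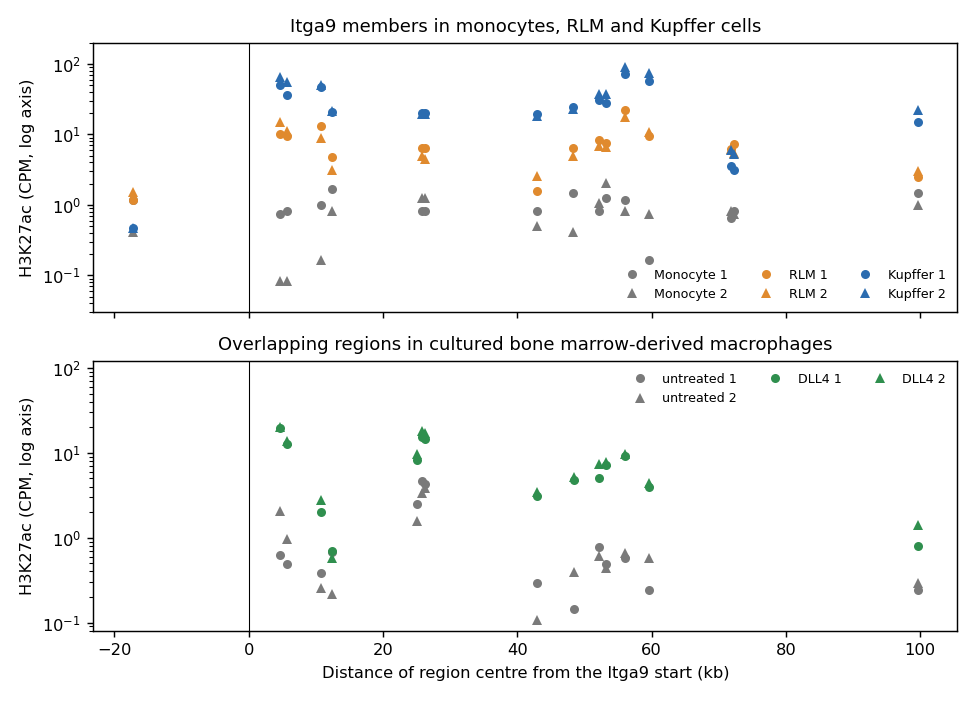
H3K27ac level in CPM (log axis) at the 16 Itga9 members in monocytes, RLM and Kupffer cells (top) and at the 14 BMDM regions overlapping them, untreated or with DLL4 (bottom), against the distance of the region centre from the gene start in kb. The top panel holds 13 members that are higher in Kupffer cells, and the bottom panel 12 regions that are higher with DLL4.

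The largest DLL4 responses at members were not all at regions strong in the liver. Adgrl3, a latrophilin gene, had 1.21 and 0.253 CPM untreated and 16.7 and 19.1 with DLL4 (log2 4.72, SE 0.30, edgeR adjusted p = 7.59e-15). Its member was at 1.97 and 2.34 CPM in RLM and 1.67 and 2.64 in Kupffer cells, overlapping the 1.41 and 2.39 of monocytes. At Aga, a lysosomal amidase gene, the BMDM region rose by 4.14 (SE 0.45) and the member was likewise low in the liver, with 2.03 and 3.23 CPM in Kupffer cells. Sash1, a scaffold gene, rose by 4.57 (SE 0.32) with DLL4 and its member by 2.56 (SE 0.40) in Kupffer cells over RLM, and Fam50b by 4.58 (SE 0.25) and 2.22 (SE 0.33). Epb41l3 rests on 2 untreated tags against 31 with DLL4, a ratio of 17.6 with a 95% interval of 4.47 to 151 that covers counting error only, and lost its call without untreated library 2 or DLL4 library 1.

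The falls with DLL4 were named by the size of the fold, which favours regions with few tags. Ccl7, a chemokine that attracts monocytes, had at its promoter 4.18 and 2.21 CPM untreated and 0.697 and 0.285 with DLL4 (log2 -2.67, SE 0.50, edgeR adjusted p = 8.77e-05), while its member rose from 2.63 and 3.25 CPM in RLM to 6.20 and 8.04 in Kupffer cells (log2 1.28, SE 0.40). Etv1, an ETS factor gene, had 5.15 and 5.07 CPM untreated and 0.837 and 0.903 with DLL4 (log2 -2.55, SE 0.36). The Rapgef2 region had 15 and 20 tags untreated and 0 with DLL4, at least 10.3-fold lower against a floor of 3 tags over the group. Wdr59, Herc4 and Daam1 gave log2 differences of -3.03 (SE 1.08), -2.98 (SE 1.03) and -2.56 (SE 0.65), and each lost its call when a library was left out.

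By gene list, the Kupffer cell identity genes had 15 of 42 BMDM regions at members higher with DLL4 and 2 lower, with a median of 0.74 log2. The higher ones were at Cd38, Clec1b, Hpgd, Il18bp, Rxra, Slc40a1 and Spic, and the lower ones at Fabp7. Iron and heme genes had 5 of 17 higher (median 0.77), macrophage genes 8 of 39 (0.38), LXR targets 5 of 32 (0.42) and NF-kB genes 7 of 34 (0.16). TGF-beta and BMP targets had 2 of 38 higher and 1 lower, the latter at Tgif1 (median 0.05), and Notch targets had 1 of 9 higher, at Cd38. Dendritic cell genes had 4 of 15 higher, lineage factors 8 of 68 (1 lower), scavenger receptors 2 of 38, lysosomal genes 1 of 32, monocyte genes 1 of 17 and interferon genes 1 of 5. The other marker lists had at most 2 regions each, 0 of them higher. These counts may be set against 8.67% of tested BMDM regions at members and 4.89% of all BMDM regions.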

How the data were processed

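Reads were aligned with Bowtie2 to mm10 and processed with HOMER, per the submitters' processing notes. The deposited H3K27ac tables hold raw tag counts per library in 2000 bp regions merged from the peak lists of the cell types, and the authors' membership label gives the lists that held each region. The factor lists hold, per the file headers, HOMER peaks called by the authors in each library against 1 input (at least 4-fold over input and over 10000 bp of local background, FDR 0.001), with the peak signal in tags per 10000000 and the fold ratio over input. The members and gene lists were chosen with earlier results of these data known.

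Counts were fitted over the whole table with edgeR 4.0.16 (robust quasi-likelihood, TMM, filterByExpr, R 4.3.3), all 6 monocyte, RLM and Kupffer cell libraries together and the 4 BMDM libraries together, with Benjamini-Hochberg adjustment over all regions. A region was called at an adjusted p under 0.05 and at least a 2-fold difference. Levels are given as TMM-scaled CPM. DESeq2 1.42.0, other scaling, filters, overlaps and single libraries left out were tried as alternatives. A BMDM region was linked to a member by an overlap of at least 1000 bp. The fit was tested on simulated data. Nearest genes and annotations are the authors', and promoter sequences are from RefSeq for GRCm38.p6, which is the mm10 assembly. Of 636 members annotated as promoters, 485 held a start of the same symbol from that table.

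Members were named 1 region per gene: the 8 largest differences in each direction between Kupffer cells and RLM among called members with separate libraries and levels above the median, the 8 strongest with an absolute log2 difference under 0.5, the 8 strongest in Kupffer cells with all 3 factors, up to 6 per direction at called DLL4 regions, up to 4 per gene list, the 5 genes with most members, and the 3 members just inside and 3 regions just outside the rule by monocyte level, of which 1 is not reported here.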

Additional observations from a re-analysis of the deposited data

How the results depend on the processing

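The calls rest on 2 libraries a group and on windows that overlap. Of 94 named regions none changed sign while called, and 6 lost a call under some setting. Of the differences between Kupffer cells and RLM, 2253 higher and 338 lower, DESeq2 gave 205 lower, and members that overlap no other region gave 697 and 167. Leaving out single libraries gave 1794 to 2311 higher and 150 to 371 lower, the lowest of both without Kupffer cell library 2. The median difference of Kupffer cells from monocytes, 1.14 log2, was 0.88 for members that overlap no other region, 1.02 without scaling factors and 1.11 to 1.21 with a library left out. With no fold minimum DLL4 gave 1578 higher and 495 lower. Scaling by total tags shifted the median of all regions by -0.144 (Kupffer cells minus RLM), -0.111 (Kupffer cells minus monocytes) and -0.060 (DLL4), and called 1991 higher and 396 lower for Kupffer cells against RLM.

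The share of members with a BMDM region was 94.8% at 1 bp, 88.1% at 1500 bp and 90.2% for members that overlap no other region. With peaks of at least 8-fold over input the Kupffer cell shares were 36.2% (LXR) and 0.95% (RBPJ) and the BMDM shares 25% (LXR), 17.6% (SMAD4) and 45.6% (RBPJ). With a peak in either library they were 73.2% (LXR), 62.0% (SMAD4) and 29.7% (RBPJ) in Kupffer cells and 62.9%, 51.5% and 82.2% in BMDM, and with 1 bp of a peak RBPJ in BMDM was 69.1%. Single libraries gave 55.4% to 65.5%, 43.0% to 56.4% and 18.0% to 21.3% in Kupffer cells, and 47.0% to 55.1%, 35.0% to 43.8% and 75.1% to 75.2% in BMDM. At 8-fold the median difference between Kupffer cells and RLM was -0.11 without LXR, 0.071 without SMAD4, and 0.65 with and 0.60 without RBPJ. The cause of these changes was not tested, beyond the fewer members, peaks or libraries that each setting keeps.

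Libraries share only a replicate number: deviations of equal numbers correlated at -0.02 (RLM and Kupffer cells) and 0.02 (BMDM). With the number as a block 2234 members were higher and 316 lower for Kupffer cells against RLM, and 655 and 86 BMDM regions for DLL4.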
